A study of Mus musculus with 2 samples.

Results

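Hyaluronan is a long, unbranched sugar polymer of the extracellular matrix, and 10 genes for its synthesis, binding and turnover were followed in the skin cells of control and testosterone propionate (TP)-treated mice. The members are the hyaluronan synthases Has1, Has2 and Has3, the enzyme of UDP-glucuronate supply Ugdh, the hyaluronidases Hyal1, Hyal2 and Cemip, the receptor Cd44, and the hyaluronan-binding matrix proteins Tnfaip6 and Vcan. They were found by symbol among the 32285 genes of the count matrices, and all 10 were present. The list was put together because Has1 and Ugdh were much higher in TP fibroblasts, so their values in fibroblasts are a description of what chose them and not independent evidence.

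Both groups were C3H/HeN males, aged 7 weeks when treatment began and 9 weeks when skin was taken, with shaved backs. The TP group received 0.5 mg of testosterone propionate per day under the skin as a model of androgenetic alopecia, and the control group received vehicle. Dorsal skin of 15 mice per group was pooled, dissociated with collagenase and made into 1 droplet library, so the libraries are 1 sample each and no difference between them has a replicate check or a test. TP + Ab mice are not analysed here.

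The droplet assay reads the 3′ end of a transcript and attaches a random tag to every molecule it catches, so that PCR copies collapse into 1 unique molecular identifier (UMI). The control library held 39076 cells and the TP library 18542 cells after filtering, at medians of 2046 and 4795 UMIs. The 2 matrices shared 303 cell barcodes. Clustering, in which neither the members nor 35 further pathway genes took part, gave 30 clusters, of which 22 were named after 15 cell classes from marker lists. The 8 unnamed clusters held 44.6% of control and 15.9% of TP cells. Levels are CPM, a gene's summed UMIs per 1000000 UMIs that all genes have in the same class, and differences are ratios of TP over control. Parentheses after levels, shares and ratios give 95% intervals (exact Poisson, Clopper-Pearson and exact conditional binomial) that cover counting error only, not the spread between mice or libraries.

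Hyaluronan is made at the plasma membrane, where a synthase joins UDP-glucuronate and UDP-N-acetylglucosamine and extrudes the growing chain. Ugdh makes the first sugar from UDP-glucose, and the enzymes of the hexosamine pathway make the second. In skin, dermal fibroblasts deposit it in the dermis and keratinocytes around the living epidermal layers, Cd44 binds it at the cell surface, versican anchors in it, Tnfaip6 (TSG-6) remodels it, and hyaluronidases cut it for uptake and lysosomal breakdown. Versican is also a familiar marker of the dermal papilla of growing hair follicles.

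The dermal fibroblast-like (DF-like) cells were 1 cluster of 216 control cells and 678 TP cells, 0.553% and 3.66% of the kept cells, led by Col1a2, Col1a1, Col3a1, Sparc and Dcn. All 10 fibroblast markers were detected in it. It held 571852 control UMIs and 5070788 TP UMIs, at medians of 2081.5 and 6506.5 per cell. One of its 5 subclusters, with 82 control and 80 TP cells, carried Schwann cell markers such as Cdh19, and values without it are given where it matters.

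The members with the highest TP over control ratios in these cells were Has1, Ugdh and Tnfaip6. The sequences just upstream of these genes are shown because the genes were higher together in these cells, as the 250 bases before the start that RefSeq places on GRCm38.p6 (mm10), read along the gene. Of the 10 members, 8 had a promoter in the table used. The Ugdh and Tnfaip6 windows end where the gene begins, while the start used for Has1 lies inside the span given for that gene, so its window is sequence within the annotated gene. Capitals mark TGANTCA, a motif of AP-1 factors, and GGGCGG, a GC box, found on either strand (CCGCCC is the GC box on the opposite strand).
Has1, chr17:17855189-17855438, minus strand: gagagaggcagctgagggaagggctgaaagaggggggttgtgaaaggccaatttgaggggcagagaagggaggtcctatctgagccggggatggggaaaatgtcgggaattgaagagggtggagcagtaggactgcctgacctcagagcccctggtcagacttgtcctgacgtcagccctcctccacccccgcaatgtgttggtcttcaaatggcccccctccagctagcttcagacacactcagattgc
Ugdh, chr5:65435843-65436092, minus strand: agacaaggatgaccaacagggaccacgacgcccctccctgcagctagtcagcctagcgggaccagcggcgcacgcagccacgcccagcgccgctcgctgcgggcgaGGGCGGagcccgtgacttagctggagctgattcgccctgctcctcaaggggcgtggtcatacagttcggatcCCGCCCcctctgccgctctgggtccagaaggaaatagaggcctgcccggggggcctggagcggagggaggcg
Tnfaip6, chr2:52037863-52038112, plus strand: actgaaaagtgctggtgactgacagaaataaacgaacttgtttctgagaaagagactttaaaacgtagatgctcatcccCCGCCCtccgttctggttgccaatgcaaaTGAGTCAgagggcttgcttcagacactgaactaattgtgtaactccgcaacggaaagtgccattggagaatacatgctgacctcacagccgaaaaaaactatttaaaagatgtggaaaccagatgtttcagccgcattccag
The Ugdh window held GGGCGG at 144 and at 72 bases before the start. The Tnfaip6 window held it at 171 bases and TGANTCA at 142 bases before the start. No searched motif was in the Has1 window. Of 32851 promoter windows of this length, 32.7% held GGGCGG and 6.75% held TGANTCA. The other motifs searched on both strands were in none of the 3 windows: AGAACA, 1 arm of the site of androgen and glucocorticoid receptors (16.1% of all windows), the full palindrome of AGAACA and TGTTCT with 3 bases between (0.00913%), the NF-kB motif of GGG and TTCC with 3 bases between (4.65%) and TATAAA (12.4%). The windows were 58.0% (Has1), 69.2% (Ugdh) and 44.4% (Tnfaip6) G and C, against a median of 52.4% over all windows. These are letters in a window and say nothing of factor binding.

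Has1 (ENSMUSG00000003665, chromosome 17 from 17833691 to 17855589 on GRCm38) is 1 of the 3 synthases that make hyaluronan at the cell surface. In DF-like cells it had 2 UMIs in control and 266 in TP. The levels were 3.50 CPM (0.424 to 12.6) and 52.5 CPM (46.3 to 59.2), at a ratio of 15.0 (4.11 to 124). The width of this interval comes from the 2 control UMIs. TP fibroblasts held 86.4% of all Has1 UMIs of their library, and control fibroblasts 5.71%. No other class went over 1 CPM in either library. Within the DPC-like class, though, cluster 24 had 3 Has1 UMIs in its 45 control cells, which is 32.9 CPM, and 2 UMIs in its 507 TP cells.

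Has2 (ENSMUSG00000022367, chromosome 15 from 56665627 to 56694546), the main synthase of fibroblasts and of development, had 8 UMIs in control and 187 in TP DF-like cells. Its levels were 14.0 CPM (6.04 to 27.6) and 36.9 CPM (31.8 to 42.6), at a ratio of 2.64 (1.31 to 6.20). When each cell was thinned to 1000 UMIs, 4 control and 22 TP UMIs were left and the ratio was 1.46. Fibroblasts held 1.69% of the Has2 UMIs of control and 44.3% of those of TP. Over all cells the direction was the other way, 4.45 CPM (4.05 to 4.87) in control cells and 3.21 CPM (2.91 to 3.53) in TP. Inner root sheath-like cells, the largest named holder in control with 19.5% of UMIs, went from 7.09 CPM (5.72 to 8.70) to 3.92 CPM (2.39 to 6.05).

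Has3 (ENSMUSG00000031910, chromosome 8 from 106870242 to 106882902), the synthase best known from keratinocytes, was nearly absent from DF-like cells, with 4 control and 8 TP UMIs. Among named classes its level was highest in germinative layer-like cells, 28.5 CPM (23.5 to 34.2) in control cells and 31.8 CPM (23.8 to 41.6) in TP, and the interval of the next class lay below in each library. Myeloid-like cells of control, with 2 UMIs, had a wide interval that overlapped it. An unnamed cluster led by Acsm3, Slc27a6 and S100a3 stood higher in control, at 44.3 CPM, and at 23.8 CPM in TP cells at a ratio of 0.536 (0.407 to 0.702). In basal cells of the interfollicular epidermis (IFE) Has3 was 3.14 CPM (1.99 to 4.71) in control cells and 6.16 CPM (4.98 to 7.54) in TP cells at a ratio of 1.96 (1.23 to 3.25). Has1 and Has2 had their highest level in TP in DF-like cells, with intervals above that of the next class. In control the DF-like values of both were also the highest, but their intervals overlapped the next class.

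Ugdh (ENSMUSG00000029201, chromosome 5 from 65413207 to 65435842) oxidises UDP-glucose to UDP-glucuronate, the precursor of hyaluronan and of other glycosaminoglycans. Its UMIs in DF-like cells were 85 in control and 6078 in TP. The levels were 149 CPM (119 to 184) and 1199 CPM (1169 to 1229), at a ratio of 8.06 (6.51 to 10.1). DF-like cells were the highest class in both libraries, and their share of all Ugdh UMIs was 2.60% in control and 60.2% in TP. In IFE suprabasal-like cells the Ugdh ratio was 0.636 (0.561 to 0.721). Control had 21.6 CPM (19.5 to 23.8) there, and TP 13.7 CPM (12.7 to 14.8). Inner root sheath-like cells, taken further on as background, had 18.6 CPM (16.3 to 21.1) and 22.9 CPM (19.0 to 27.5). The suprabasal interval overlapped theirs in control and lay below it in TP. Free RNA was not measured, so this comparison cannot tell whether the lower suprabasal value is one of expression. No opposite direction of Ugdh is read there. In the dermal papilla cell-like (DPC-like) cells the ratio was 1.17 (1.05 to 1.32), and in the other named classes it lay between 0.710 and 1.54 with intervals that included 1.

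Hyal1 (ENSMUSG00000010051) and Hyal2 (ENSMUSG00000010047) are neighbours on chromosome 9, from 107576950 to 107581699 and from 107567873 to 107572778, with 4171 bases between them. Hyal1 is a lysosomal hyaluronidase, and Hyal2 is anchored at the cell surface. DF-like cells had 4 and 29 UMIs of Hyal1 and 3 and 20 of Hyal2 in control and TP, too few to show a difference at this depth. In the keratinocyte classes of both libraries the 2 genes lay between 7.31 CPM (Hyal1) and 15.2 CPM (Hyal1). Over all kept cells Hyal1 was 10.3 CPM (9.69 to 10.9) and 10.6 CPM (10.0 to 11.1), and Hyal2 10.2 CPM (9.57 to 10.8) and 12.0 CPM (11.4 to 12.6). In TP, IFE suprabasal-like cells held 45.9% of the UMIs of each. Hyal1 was lower in TP DPC-like cells, 4.92 CPM (3.60 to 6.57) against 9.58 CPM (7.87 to 11.6) in control, a ratio of 0.514 (0.356 to 0.731). Hyal2 was highest in TP endothelial-like cells, 34.4 CPM (22.3 to 50.8) from 25 UMIs, against 16.6 CPM (5.40 to 38.8) from 5 UMIs in control, and its TP interval overlapped that of myeloid-like cells.

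Cemip (ENSMUSG00000052353, chromosome 7 from 83932857 to 84086693), a hyaluronan-binding protein needed for the breakdown of long chains, had 2 and 3 UMIs in DF-like cells. Among named classes its largest holder was the hair follicle's inner root sheath: these cells held 47.1% of the control and 29.9% of the TP UMIs, at 26.3 CPM (23.6 to 29.2) and 21.9 CPM (18.1 to 26.4). In germinative layer-like cells Cemip was 15.6 CPM (62 UMIs) in control cells and 3.60 CPM (6 UMIs) in TP cells at a ratio of 0.230 (0.0814 to 0.530). In the unnamed cluster led by Acsm3 it went from 21.3 to 38.6 CPM, a ratio of 1.82 (1.37 to 2.41).

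Tnfaip6 (ENSMUSG00000053475, chromosome 2 from 52038113 to 52056681) encodes TSG-6, a secreted protein that moves heavy chains of inter-alpha-inhibitor onto hyaluronan and is known as an inflammation-induced gene. The 109 control and 6582 TP UMIs of DF-like cells amounted to 191 CPM (157 to 230) and 1298 CPM (1267 to 1330), at a ratio of 6.81 (5.64 to 8.31). Their share of all Tnfaip6 UMIs was 7.97% in control and 77.0% in TP, while that of DPC-like cells was 79.5% and 17.6%. DPC-like cells came next in either library, with 95.6 CPM (90.0 to 101) in control cells and 161 CPM (153 to 169) in TP. The DPC-like ratio of 1.68 (1.55 to 1.82) was carried by 2 of 3 clusters, 1.95 (1.77 to 2.15) in cluster 6 and 1.37 (1.15 to 1.63) in cluster 15, against 1.06 (0.598 to 2.07) in cluster 24. In outer bulge-like cells Tnfaip6 had 0 control UMIs and 56 TP UMIs, at least 3.86-fold higher against a floor of 3 UMIs per library, with an exact lower limit of 3.03. In the cells of the dermal sheath cup, smooth muscle or pericyte-like class it had 0 and 21 UMIs, at least 2.99-fold higher by the same floor, with an exact lower limit of 2.22.

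Cd44 (ENSMUSG00000005087, chromosome 2 from 102811141 to 102901669), the main hyaluronan receptor, had 75 and 585 UMIs in DF-like cells. That made 131 CPM (103 to 164) for control and 115 CPM (106 to 125) for TP, a ratio of 0.880 (0.691 to 1.13), and it was 1.15 with a TMM factor of the class, a scale set by the genes that differ least. Thinning each cell to 1000 UMIs gave 0.637, and cells gated on fibroblast markers without keratins gave 0.570. Vcan (ENSMUSG00000021614, chromosome 13 from 89655309 to 89743027), the large proteoglycan versican, had 135 and 2049 UMIs there. Its levels were 236 CPM (198 to 279) and 404 CPM (387 to 422), at a ratio of 1.71 (1.44 to 2.05). In the 126 control and 51 TP cells of the fibroblast marker gate, of which 43 and 40 lay in the DF-like cluster, the ratio turned to 0.804 (1011 and 367 UMIs). All control DF-like cells together held 135 Vcan UMIs, so most of the 1011 came from gated cells outside that cluster.

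**Figure D1:**
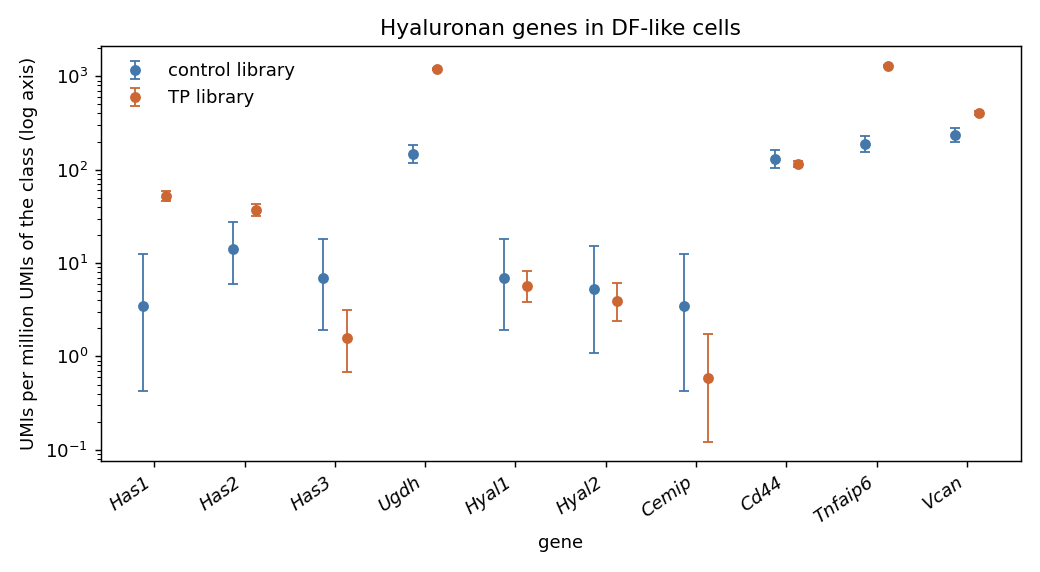
Level of each hyaluronan gene in DF-like cells, in CPM of the class on a log axis, for the control library (blue) and the TP library (orange), with exact 95% Poisson intervals; levels are comparable between libraries for 1 gene, not between genes. Over the whole class, Has1, Has2, Ugdh, Tnfaip6 and Vcan stood above control, and the intervals of Has3, Hyal1, Hyal2, Cemip and Cd44 overlapped. Vcan and Cd44 differed between subclusters. Vcan was lower in TP under the marker gate (0.804), whose control cells lay mostly outside the DF-like cluster.

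Of the 10 members, 6 had at least 50 UMIs in DF-like cells over both libraries, and Has1 and Has2 passed that filter only through TP. Of these 6, Has1, Has2, Ugdh and Tnfaip6 were at least 2-fold higher in TP (with 1 UMI added per library) and 0 were at least 2-fold lower, where 2.86% of the 9300 genes with as many UMIs were higher and 10.5% lower. The list was chosen on this contrast, so nothing is read from that count. The median log2 ratio of all 9300 genes was -0.30. With a TMM factor it was 0.09, and then 7.29% of genes were higher and 3.76% lower.

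The 35 further genes of the pathway were listed by role. In DF-like cells 19 of them had at least 50 UMIs, and 8 were at least 2-fold higher and 1 at least 2-fold lower, where 2.86% and 10.5% of all genes with as many UMIs were. Of the 8 higher genes, 7 had fewer than 50 control UMIs and passed only through TP (Gnpnat1, Pgm3, Uap1, Hexa, Gusb, Layn and Adamts4), so nothing is read from the count of higher genes. With a minimum of 1 UMI, 29 were tested, 8 were higher and 8 lower. Of these lower genes, Hyal3, Bcan, Hapln1, Itih2 and Itih4 had 0 control UMIs. They counted as lower only through the 1 UMI added per library, so nothing is read from that count. With the TMM factor 10 of 19 were higher and 0 lower. The genes of UDP-sugar supply come first. Gfpt2, which commits fructose-6-phosphate to the hexosamine pathway, was 142 CPM (81 UMIs) in control cells and 429 CPM (2174 UMIs) in TP cells at a ratio of 3.03 (2.42 to 3.83). The next enzymes of that pathway were Gnpnat1, from 2 to 145 UMIs (8.18, 2.22 to 68.2), and Pgm3, from 12 to 278 UMIs (2.61, 1.47 to 5.12). Uap1, which makes UDP-N-acetylglucosamine itself, was 64.7 CPM in control cells and 304 CPM in TP cells at a ratio of 4.70 (3.39 to 6.70). The other 2 were Ugp2, the source of the UDP-glucose that Ugdh uses, at 1.81 (1.33 to 2.51), and Gfpt1 at 1.46 (1.03 to 2.14).

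Among the lysosomal exoglycosidases, which take hyaluronan fragments apart, Hexa (2.33, 1.70 to 3.27) and Gusb (2.51, 1.41 to 4.92) were at least 2-fold higher in TP fibroblasts. The receptor layilin, Layn, went from 24.5 to 66.1 CPM, a ratio of 2.70 (1.59 to 4.99). Itih5, which encodes a heavy chain of the inter-alpha-inhibitor family and was the highest gene among the other matrix proteins, had a ratio of 0.716 (0.598 to 0.863). That interval included the TMM factor of the class (0.765), so no fall is read from it. Of the ADAMTS enzymes that cleave versican, Adamts4 had 2 control and 109 TP UMIs (6.15, 1.66 to 51.4), and Adamts9 was the 1 lower gene, from 40.2 to 20.5 CPM (0.510, 0.322 to 0.840). Adamts5, the highest of that role in DF-like cells, went from 268 to 383 CPM (1.43, 1.21 to 1.70). The hyaluronidase Cemip2 lay at 22.7 and 18.7 CPM, with a ratio of 0.824 (0.460 to 1.60) that was above 1 with the TMM factor.

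**Figure D2:**
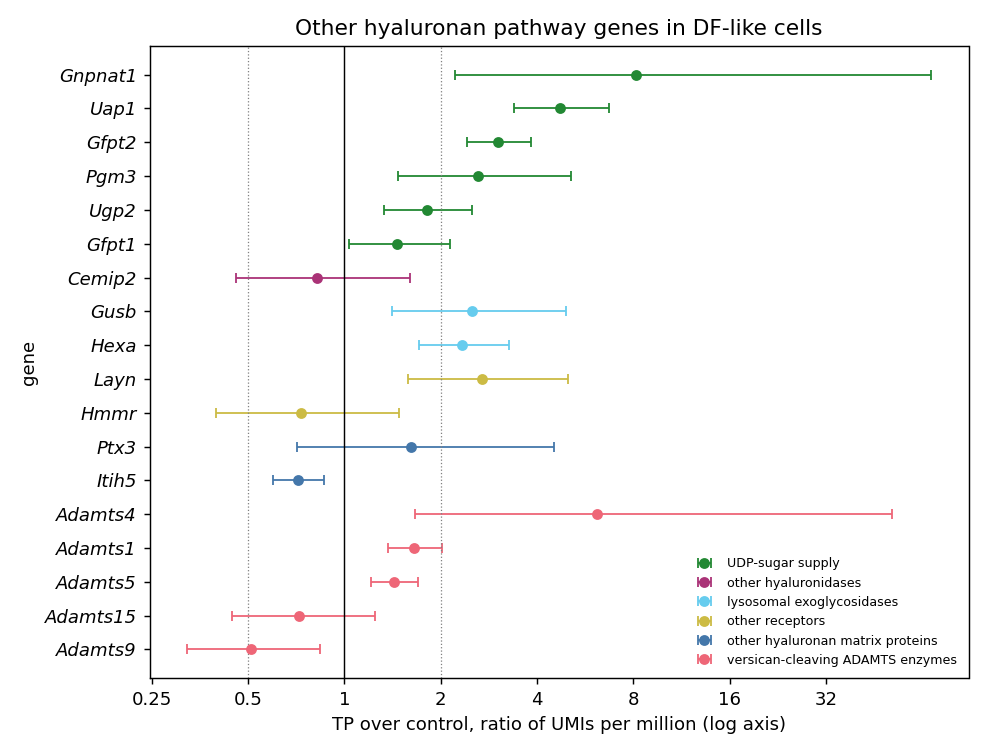
Ratio of TP over control in DF-like cells, on a log axis, for 18 of the 19 further pathway genes with at least 50 UMIs, coloured by role, with exact 95% intervals for counting error; the solid line is a ratio of 1 and the dotted lines are 2-fold. The genes of UDP-sugar supply run from 1.46 (Gfpt1) to 8.18 (Gnpnat1), and of these Gfpt2 alone had 50 control UMIs or more, so the others are plotted only through their TP UMIs.

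These values moved together with signs of stress and with cell makeup. Of 10 stress and immediate-early genes, all tested, 7 were at least 2-fold higher in TP DF-like cells (Atf3 5.62-fold, Fos 3.28-fold) and 0 lower, where 2.86% and 10.5% of all genes were. The heat shock genes Hspa1a (0.704, 0.590 to 0.844) and Hspa1b (0.718, 0.583 to 0.893) had ratios below 1. Both intervals included the TMM factor of the class (0.765), so no fall is read from them. The summed level of the 10 genes was 3529 CPM in control cells and 8163 CPM in TP. Of 8 inflammatory genes 7 were tested and 3 were higher (Nfkbia, Socs3 and Ptgs2), with sums of 241 and 622 CPM. These 3 had 41, 23 and 1 control UMIs and passed the filter only through TP, so nothing is read from their count. The part of the stress and inflammatory genes in the hyaluronan values was not tested. In DPC-like cells the stress sum went from 2541 to 11906 CPM. Markers of keratinocytes (Krt5, Krt14, Krt1, Krt10), immune cells (Ptprc, Lyz2), endothelium (Pecam1) and Schwann cells summed to 1757 CPM in control cells and 1798 CPM in TP DF-like cells. Of these 9 markers 7 were tested, 0 were at least 2-fold higher and 3 were lower, Lyz2 among them. Without the Schwann-like subcluster, 134 control and 598 TP cells remained, and the ratios were 12.7 for Has1, 2.23 for Has2, 8.18 for Ugdh, 5.99 for Tnfaip6, 1.58 for Vcan and 0.985 for Cd44.

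The DF-like subclusters differed in their levels. Subcluster 1 (Mgp, Fmo2, Angptl7, Prg4) held 46 control and 273 TP cells, subcluster 2 (Hp, Cyp2e1, Gpc5) 68 and 121, subcluster 3 (Ctla2a, Igfbp2, Grem1) 18 and 161, and subcluster 5 (Sema3e, Smpd3, Pla1a) 2 and 43. Has1 in TP was 62.1 CPM in subcluster 1, 49.4 CPM in subcluster 2, 39.3 CPM in subcluster 3 and 78.0 CPM in subcluster 5, and it was 0 in both libraries in the Schwann-like one. Ugdh was 188 and 1229 CPM in control cells and TP in subcluster 1, 95.4 and 1314 CPM in subcluster 2 and 131 and 779 CPM in subcluster 3. In TP cells of subcluster 5 it reached 3697 CPM, against 658 CPM from 4 UMIs of 2 control cells. In the Schwann-like subcluster Ugdh was 139 CPM in control (14 UMIs) and 87.6 CPM in TP (13 UMIs). Tnfaip6 was between 1043 and 1515 CPM in the 4 fibroblast subclusters of TP and went from 39.8 CPM (4 UMIs) to 101 CPM (15 UMIs) in the Schwann-like one. Ugdh and Tnfaip6 were thus higher in TP in each of subclusters 1, 2 and 3. Vcan in control and TP was 220 and 488 CPM in subcluster 1 and 292 and 385 CPM in subcluster 2. It was 321 and 330 CPM in subcluster 3. Cd44 went both ways, from 51.6 CPM (11 UMIs) to 113 CPM in subcluster 1 and from 221 to 128 CPM in subcluster 2. In subcluster 3 it was 83.1 CPM (7 UMIs) and 114 CPM.

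**Figure D3:**
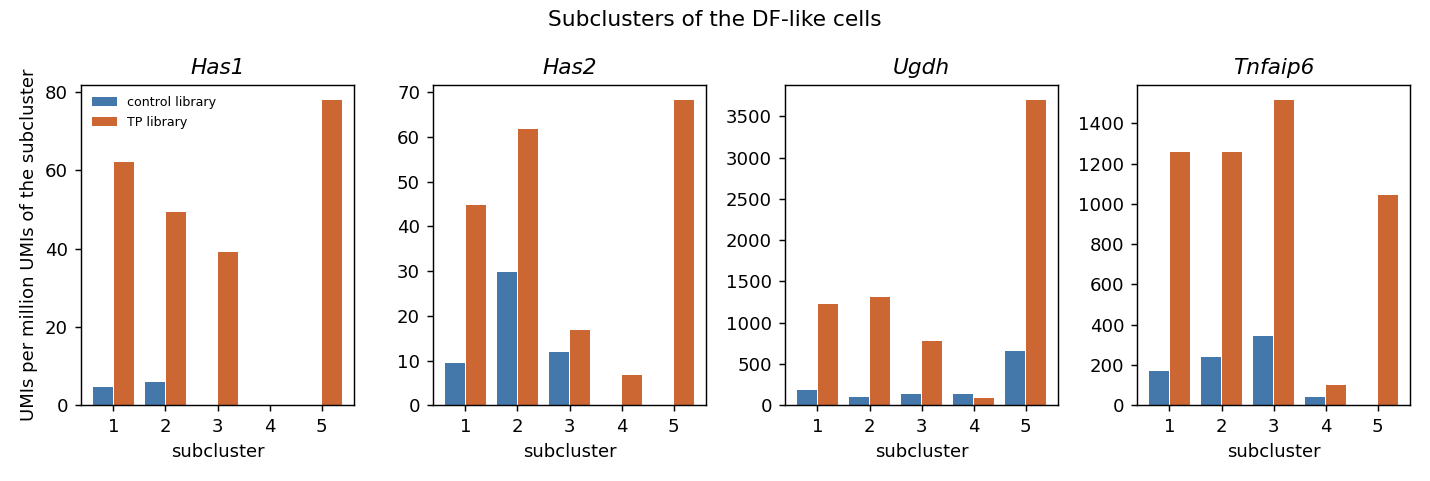
Levels of Has1, Has2, Ugdh and Tnfaip6 in the 5 subclusters of the DF-like cells, in CPM of the subcluster, for the control library (blue bars) and the TP library (orange bars), without error bars. Subcluster 4 carries Schwann cell markers and lacks the high TP bars of the other subclusters, and subcluster 5 rests on 2 control cells.

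Within TP fibroblasts the transcripts were unevenly spread. The 10% of TP DF-like cells with the most UMIs of the gene held 53.9% of the Ugdh and 57.5% of the Tnfaip6 UMIs, and single cells reached 105 and 136 UMIs. For Has1, found in 80 of the 678 cells and with up to 20 UMIs in a cell, they held 95.5%. For Has2, found in 125 cells, they held 69.5%. A gene found in few cells has a high share of this kind. Depth differed between cells, and its part in this was not tested. Shares of cells with a UMI were read after thinning each cell to 1000 UMIs, since TP cells were deeper, which left 171 control and 642 TP cells. A Ugdh UMI was found in 11.7% (7.29 to 17.5) of control and 42.7% (38.8 to 46.6) of TP DF-like cells, and a Tnfaip6 UMI in 10.5% (6.36 to 16.1) and 38.9% (35.1 to 42.8). Has1 was in 0 of 171 control cells, which allows a share of cells with a UMI of up to 1.75% by the floor of 3 counts and 2.13% by the exact limit, and in 3.12% (1.91 to 4.77) of TP cells, so the intervals overlapped. Has2 was in 2.34% (0.641 to 5.88) and 3.27% (2.04 to 4.96), a difference not detectable at this depth. Inner root sheath-like cells, at medians of 1990 and 3796.5 UMIs, were taken as background for free RNA, which was not itself measured. Their shares were 1.78% and 2.81% for Ugdh and 0.184% and 0.255% for Tnfaip6. Unthinned, 68.9% of TP DF-like cells had a Ugdh UMI, 55.3% a Tnfaip6 UMI and 11.8% a Has1 UMI, against 0.926% of control cells for Has1.

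Detection of Ugdh was compared between TP cells with and without a UMI of another member. Of the 250 thinned TP DF-like cells with a Tnfaip6 UMI, 50.8% (44.4 to 57.2) had a Ugdh UMI, against 37.5% (32.7 to 42.5) of the 392 without. Without the Schwann-like subcluster the shares were 51.0% (44.6 to 57.4) and 41.8% (36.5 to 47.2), and the intervals overlapped. Of the 20 cells with a Has1 UMI, 11 had one of Ugdh, 55.0% (31.5 to 76.9), against 42.3% (38.4 to 46.3) of the others. These cells come from 1 library and are not replicates.

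A stromal cluster that stayed unnamed, led by Vim, Lama2, Apod, Sparc, Slit2, Col1a1 and Col1a2, showed part of the same pattern. It held 368 control and 140 TP cells, which are outside the DF-like shares given above. Its highest marker score was that of the dermal sheath cup (5.03). Tnfaip6 was 45.8 CPM in control cells and 221 CPM in TP there, a ratio of 4.81 (3.50 to 6.73), and Ugdh 50.4 and 115 CPM, a ratio of 2.29 (1.62 to 3.25). Has1 had 0 UMIs in either library. Vcan went down, from 1522 to 935 CPM, a ratio of 0.614 (0.563 to 0.670).

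Vcan was above all a gene of DPC-like cells, named after the mesenchymal signalling cells at the base of the follicle. DPC-like cells numbered 3942 in control and 1650 in TP and held 89.9% and 92.0% of all Vcan UMIs. Their 47690 control and 58113 TP UMIs gave 4193 CPM (4156 to 4231) and 6220 CPM (6170 to 6271), so that TP was 1.48 times control. The ratio was 1.81 (1.77 to 1.84) in cluster 6, led by Dcc, Enpp2 and Ebf1, 1.77 (1.74 to 1.80) in cluster 15, led by Ebf1, Dcc and Vcan itself, and 1.58 (1.33 to 1.89) in cluster 24. Cluster 24, led by Vim, Gpc5 and Ebf1, held 45 control and 507 TP cells at a low Vcan level, so the class as a whole had a smaller ratio than any of its clusters. All 12 papilla markers were detected in cluster 24, but 0 were among its top 10 genes. Its score of 4.05 was below those of cluster 6 (4.94) and cluster 15 (4.91), so its name is less sure. The thinned share of DPC-like cells with a Vcan UMI was 83.2% (82.0 to 84.4) in control and 77.2% (75.0 to 79.3) in TP, against the direction of the level, and no order was read from it.

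**Figure D4:**
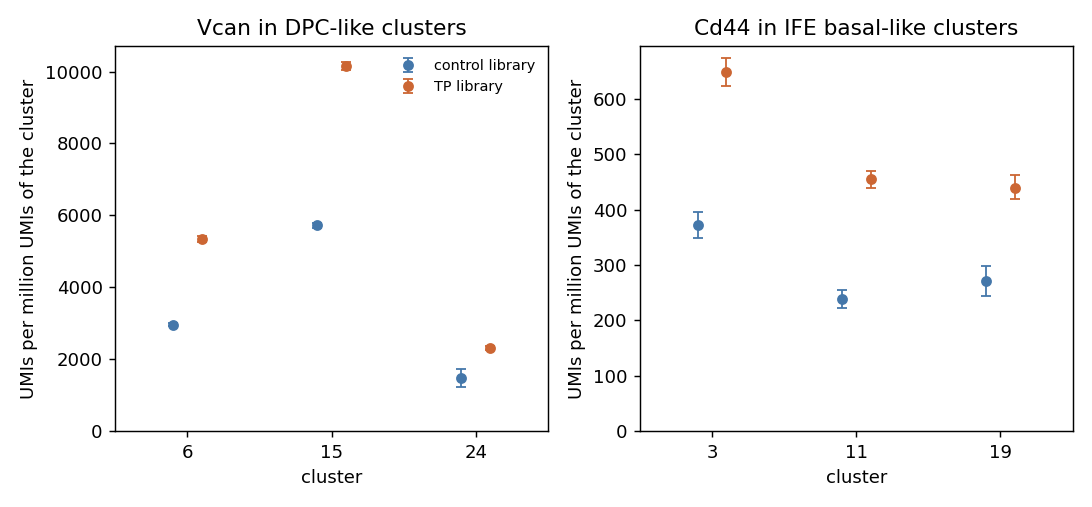
Vcan in the 3 DPC-like clusters (left) and Cd44 in the 3 IFE basal-like clusters (right), in CPM of the cluster, for the control library (blue) and the TP library (orange) with exact 95% Poisson intervals. TP is above control in all 6 clusters, with ratios from 1.58 to 1.91.

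Of the pathway genes in DPC-like cells, 20 of 35 were tested, 5 were at least 2-fold higher and 3 at least 2-fold lower, against 3.92% and 7.2% of the 12867 genes tested. Of the 5 higher genes, Hapln3 passed the filter only through TP. Of the higher genes all but Hapln3 were ADAMTS enzymes that cleave versican. Adamts20 went from 10.3 to 68.0 CPM (6.61, 5.42 to 8.12), Adamts15 from 14.8 to 71.6 CPM (4.85, 4.09 to 5.78), Adamts4 from 5.63 to 22.2 CPM (3.94, 2.96 to 5.30) and Adamts1 from 33.9 to 68.6 CPM (2.02, 1.78 to 2.30). Adamts9, the highest of them in control, was lower, from 410 to 198 CPM (0.482, 0.457 to 0.509). The link protein Hapln3 had a ratio of 5.04 (2.78 to 9.79) from 14 and 58 UMIs. The cell-surface hyaluronidase Cemip2 was 430 CPM in control cells and 182 CPM in TP (0.423, 0.400 to 0.447), and the receptor Hmmr, whose transcript follows the cell cycle, was 21.1 and 3.85 CPM (0.183, 0.125 to 0.260). The share of cluster 24 differed between the libraries, and the ratios within clusters were not those of the class. In clusters 6, 15 and 24 they were 2.72, 3.69 and 3.97 for Adamts20, and 3.05, 4.79 and 3.04 for Adamts15. Those of cluster 24 rest on 4 control UMIs each (1.54 to 14.6 and 1.18 to 11.2). Adamts4 was at 2.87, 2.35 and 0.499 and Adamts1 at 1.90, 2.57 and 0.708, with intervals in cluster 24 that included 1. Adamts9 was at 0.841 (0.779 to 0.908) in cluster 6 and 0.439 (0.405 to 0.477) in cluster 15, and Cemip2 at 0.649 and 0.425. In cluster 24, with 3 control UMIs of each, Adamts9 was at 1.40 (0.466 to 6.88) and Cemip2 at 1.99 (0.667 to 9.73). Hapln3 had 12 and 16 UMIs in cluster 6 (2.24, 0.993 to 5.18), 2 and 11 in cluster 15, and 0 and 31 in cluster 24, so most of its TP UMIs lay in the cluster with 45 control cells. None of the 6 members tested in this class passed the 2-fold limit. Other lists moved with these values. The markers of other cell types summed to 1314 CPM in control and 2182 CPM in TP DPC-like cells, where 5 of 9 were tested, Krt1 was higher (2.03) and 0 were lower, and Krt10 was at 1.80. The inflammatory sum went from 172 to 760 CPM, beside the stress sums given above. Their part in the Vcan, ADAMTS and Hapln3 values was not tested.

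Outside the mesenchyme Vcan was low, between 23.7 and 49.8 CPM in the keratinocyte classes of control, and lower in TP in several of them. The ratio was 0.423 (0.323 to 0.546) in inner root sheath-like, 0.468 (0.381 to 0.575) in IFE basal-like, 0.471 (0.415 to 0.534) in IFE suprabasal-like and 0.558 (0.416 to 0.753) in upper hair follicle-like cells, and 0.955 (0.711 to 1.27) in germinative layer-like cells. The first 4 of these stayed below 1 with TMM factors of their classes. Inner root sheath-like cells were taken above as background, and a Vcan UMI was in 3.19% of them in control and 0.893% in TP after thinning. Their intervals were 29.0 to 35.2 CPM in control and 10.5 to 17.1 CPM in TP. Those of the other 3 classes with low ratios lay below these or overlapped them. Free RNA was not measured, so background and expression cannot be told apart here. No change of expression is read from these 4 classes. Endothelial-like cells had 173 CPM (129 to 227) in control cells and 24.8 CPM (14.7 to 39.1) in TP, from 52 and 18 UMIs. In the mixed lymphocyte or myeloid-like class it was 31.1 CPM (19.5 to 47.2) and 107 CPM (86.2 to 132), from 22 and 89 UMIs. The myeloid-like class went the other way, from 69.8 CPM in control to 13.8 CPM in TP, from 12 and 16 UMIs (0.198, 0.0878 to 0.458).

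Cd44 was found in every class, from 93.2 CPM in endothelial-like to 584 CPM in melanocyte-like cells of control. In TP the order changed, with the lymphocyte or myeloid-like class highest at 768 CPM (710 to 830) and IFE basal-like cells next at 504 CPM (493 to 515). IFE basal-like cells had 293 CPM (281 to 306) in control, so their ratio was 1.72 (1.64 to 1.81), and it was above 1 in each of the 3 basal clusters (1.74, 1.91 and 1.63). These clusters were led by Sox6, Il20ra and Cdh13, by Krt14, Krt15 and Serpinb2, and by Krt14, Sox6 and Krt5. In IFE suprabasal-like cells Cd44 was 130 CPM (125 to 135) and 121 CPM (118 to 124), a direction that turned with a TMM factor of that class (0.784). Control and TP overlapped in outer bulge-like cells, at 355 CPM (325 to 387) and 348 CPM (334 to 362), and in upper hair follicle-like cells, at 331 CPM (310 to 353) and 336 CPM (323 to 349). Cd44 was lower in TP in germinative layer-like cells, 258 CPM (234 to 284) against 371 CPM (352 to 391), and in melanocyte-like cells, 420 CPM (384 to 458) against 584 CPM (545 to 626). Of 7 members tested in IFE basal-like cells, 0 passed 2-fold upward and Vcan alone passed it downward, against 1.52% and 3.58% of all genes tested there. Of 13 pathway genes tested in IFE basal-like cells, Uap1 was higher (2.38, 1.95 to 2.92) and Itih5 lower (0.466, 0.386 to 0.562). In IFE suprabasal-like cells 8 members were tested, Tnfaip6 (11 and 82 UMIs, 2.68, 1.42 to 5.59) was at least 2-fold higher and Vcan lower, where 2.16% and 12.0% of genes were. In outer bulge-like cells 6 members were tested, and Tnfaip6 was the 1 higher gene and none was lower, where 2.59% and 3.4% of genes were. In both classes Tnfaip6 passed the filter only through TP. In IFE suprabasal-like cells its TP level of 1.60 CPM (1.28 to 1.99) was no higher than the 1.76 CPM (0.806 to 3.35) of inner root sheath-like cells. No change of expression is read from it there. In outer bulge-like cells it was 7.99 CPM (6.03 to 10.4).

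**Figure D5:**
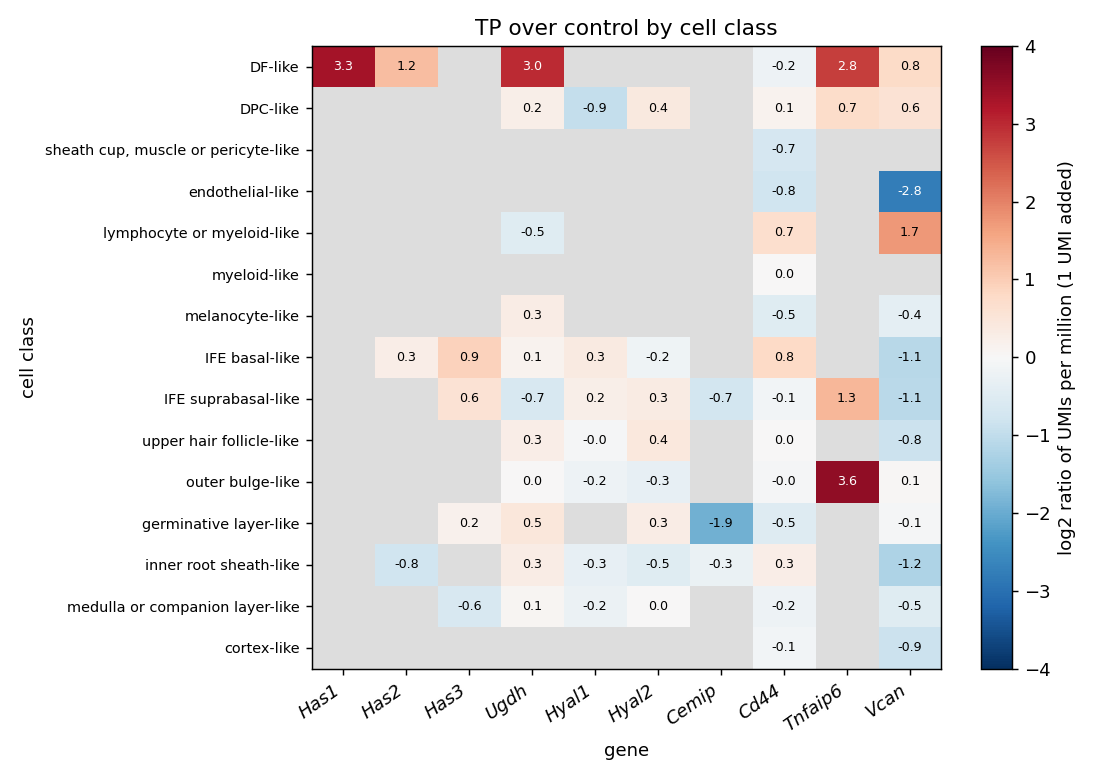
Log2 ratio of TP over control (1 UMI added per library) of each hyaluronan gene in the 15 named cell classes; red is higher in TP, blue is lower, and grey marks fewer than 50 UMIs over both libraries. Has1 had enough UMIs for a colour in DF-like cells alone. Tnfaip6 is at least 2-fold higher in DF-like, outer bulge-like and IFE suprabasal-like cells, the last no higher than inner root sheath-like cells. Vcan is below 0 in several keratinocyte classes. Its level was that of inner root sheath-like cells in some of them and above it in medulla or companion layer-like cells.

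Summed over all kept cells, Has1 (7.11, 5.00 to 10.4), Ugdh (2.5, 2.40 to 2.60) and Tnfaip6 (5.05, 4.77 to 5.35) were at least 2-fold higher and Cemip (0.419, 0.369 to 0.475) at least 2-fold lower, 3 and 1 of 10 members, where 8.22% and 10.2% of 17570 genes were. Has1, with 35 control and 308 TP UMIs, passed the filter only through TP. DF-like cells, whose Has1 and Ugdh values chose the list, held 86.4% and 60.2% of the TP UMIs of these genes. Nothing is therefore read from the count of higher members. DF-like cells were a larger part of the TP library than of the control library and inner root sheath-like cells a smaller part. With each cluster weighted by its share of the control UMIs in both libraries, the ratios were 1.63 for Has1, 1.31 for Ugdh, 2.31 for Tnfaip6 and 0.879 for Cemip. Fewer cells of a type and less RNA per cell cannot be told apart in such sums. The Vcan ratio went from 0.963 (0.952 to 0.974) as sequenced to 1.67 with clusters weighted alike.

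The genes most like a member over 26 values, those of 13 classes with at least 100 cells in both libraries, were sought by the correlation of log2(CPM + 10). For Has1 they were Creb3l3 (r = 0.970), Prg4 (0.968) and Mettl24 (0.951), and for Ugdh Chpf (0.881), Mettl24 (0.869) and Plekhf1 (0.862). For Vcan they were Islr (0.967), Cacna1g (0.966) and En1 (0.961), and for Cd44 Dnajc15 (0.820), Hist1h1e (0.769) and Hist1h1d (0.761). Classes of a library share its depth and free RNA, so these values are descriptions. Has1 was under 4 CPM in 25 of the 26 values, so its likeness rests on TP DF-like cells, 1 of the values that chose the list. Ugdh was 1199 CPM in TP DF-like cells, which also chose the list, and at most 149 CPM in the other values. How far the likeness of Ugdh rests on TP DF-like cells was not tested.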

How the data were processed

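Single-cell 3′ libraries of a control and a TP pool (15 mice each) were analysed from deposited UMI counts per gene and barcode, whole numbers that the authors made with Cell Ranger 8.0.1 (submitters' processing notes) on mm10, before normalization and filtering. The control matrix held 45709 barcodes (130999979 UMIs) and the TP matrix 25931 (166929585 UMIs). As in the study, barcodes outside 200 to 8000 genes or above 10% mitochondrial UMIs were dropped, the latter being 3465 control and 5871 TP barcodes. The DoubletFinder procedure was rewritten (25% artificial doublets, 7.5% of barcodes removed, 3168 and 1503). Seurat 5.3.0 (R 4.3.3) integrated both libraries by reciprocal PCA on 30 components of 2000 variable genes, without 45 members and pathway genes, and clustered at resolution 1. A cluster took the class whose markers scored highest, at a score of 2 or more, and took a joint name where the next score was 4 or more. It stayed unnamed with fewer than 3 markers detected, or where its top 10 genes held fewer markers of the chosen class than of some different class. The 2 score limits were chosen with the clusters already known. The DF-like cluster was split at resolution 0.5.

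UMIs were summed per class in Python 3.11.15 (numpy 2.4.6, scipy 1.17.1, pandas 2.3.3). edgeR 4.0.16 gave TMM factors only. With 1 library per group no test was possible, and precision is that of counting. Genes counted as different had at least 50 UMIs in both libraries together and a 2-fold ratio with 1 UMI added. Intervals and limits cover counting error only. The calculation of ratios was tested on simulated data. Named genes are the 10 members, the pathway genes past 2-fold in DF-like cells and the highest gene of each role; for DPC-like, IFE basal-like and other classes, genes were named after their values were seen. The members, the pathway list and the other lists were chosen with earlier results of these data known. Positions and promoters come from RefSeq on GRCm38.p6, matched by symbol, and the searched motifs were fixed with the lists. Alternatives were other scaling, cell weights, depth, doublet and mitochondrial filters, cluster resolution and cell definitions. Some genes of the lists entered the counts and sums but are not reported here by name. The authors' own comparisons and the TP + Ab group were not used here.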

Additional observations from a re-analysis of the deposited data

Results flagged for a closer look

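The Ugdh ratio lay on both sides of 1 between cell classes. TP was 8.06 times control in DF-like cells (85 and 6078 UMIs) and 0.636 times control in IFE suprabasal-like cells (397 and 701 UMIs). The suprabasal levels were 21.6 and 13.7 CPM, against 18.6 and 22.9 CPM in inner root sheath-like cells. Their intervals overlapped in control and the suprabasal one lay below in TP. This comparison cannot tell whether the lower suprabasal value is one of expression, so no opposite direction is read from it. The Vcan ratio was 1.71 in DF-like cells and 0.804 with the fibroblast marker gate, whose control cells lay mostly outside the DF-like cluster. It was 0.423 in inner root sheath-like cells, and 4 classes with at least 50 UMIs in each library were at least 1.5-fold lower. The inner root sheath-like cells, with a Vcan UMI in 3.19% of control and 0.893% of TP cells after thinning, were taken as background. Their value is therefore not read as a change of expression. Free RNA was not measured, and its part in this value was not tested. Each class is 1 library per group, so the difference between classes was not tested, and DF-like Ugdh is one of the values that chose the list.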

How the results depend on the processing

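No paired analysis was possible because each group is 1 library. Of the alternatives, 97 values stayed within the counting interval or count limit, 45 moved beyond it, and 5 values whose interval excluded 1 changed direction. Of the values whose interval included 1, those of Cd44, Hyal1 and Hyal2 in DF-like cells and of Hyal1 over all cells also lay on both sides of 1. The ratios of Has1, Ugdh and Tnfaip6 in DF-like cells stayed above 4 in every alternative that gave a value. Has1 had no value in thinned or gated cells, with 0 control UMIs.

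The gate on fibroblast markers without keratins kept 126 control and 51 TP cells, of which 43 and 40 lay in the DF-like cluster and 60 others in DPC-like clusters. Most gated control cells thus lay outside the DF-like cluster, and the gated ratios are not those of that cluster. In the gated cells the ratios were 22.2 for Has2 (1 control UMI), 12.8 for Ugdh, 4.17 for Tnfaip6, 0.570 for Cd44 and 0 for Has3, Hyal2 and Cemip (0 TP UMIs), and that of Vcan turned to 0.804. As an alternative chosen after seeing the data, DF-like cells with at least 4 fibroblast markers (145 and 607) gave 8.44 for Ugdh, 6.41 for Tnfaip6 and 25.9 for Has1. Thinning gave 0.637 for Cd44 and 5.40 for Tnfaip6. The class TMM factor gave 10.5 for Ugdh, 8.90 for Tnfaip6, 2.24 for Vcan and 1.15 for Cd44. The count of lower pathway genes was 0 with doublets kept, at 5% mitochondrial UMIs, with TMM and at 200 UMIs. It was 8 at a minimum of 1 UMI, where genes with 0 control UMIs counted as lower through the added UMI.

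Over all cells, TMM gave 0.855 for Has2, 0.631 for Has3, 2.96 for Ugdh, 1.22 for Hyal1, 1.39 for Hyal2, 0.496 for Cemip and 5.99 for Tnfaip6, and turned Cd44 to 1.10 and Vcan to 1.14. Weighting clusters by control UMIs gave 1.63 for Has1, 0.824 for Has3, 1.31 for Ugdh, 0.913 for Hyal1, 1.03 for Hyal2, 0.879 for Cemip and 2.31 for Tnfaip6, and turned Cd44 to 1.09 and Vcan to 1.67. At most 5% mitochondrial UMIs gave 0.860 for Has2, 0.891 for Cd44, 4.46 for Tnfaip6 and 0.862 for Vcan. Unthinned, the share of TP DF-like cells with a UMI was 11.8% for Has1, 18.4% for Has2, 1.03% for Has3, 68.9% for Ugdh, 4.13% for Hyal1, 2.95% for Hyal2, 37.9% for Cd44, 55.3% for Tnfaip6 and 60.6% for Vcan. The cause of these shifts was not tested. The 216 control DF-like cells limit every fibroblast ratio, and Has1 rests on 2 control UMIs.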
